A study of Homo sapiens with 4 samples.

Results

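Interferon-stimulated genes were examined in MHCC97H, an established human hepatocellular carcinoma cell line, after knockdown of UBXN1, a ubiquitin-binding cofactor of the VCP ATPase. The 39 genes are the rows of the deposited table that bear the symbols of a list of interferon-stimulated genes, out of 61541 gene IDs in all. No measured value was used by that rule. Total RNA of 2 control libraries (shCon) and 2 knockdown libraries (shUBXN1) had been sequenced after selection of mRNA. All 4 libraries come from the same cell line, which carries a short hairpin RNA in both groups, and no interferon or virus is named in the labels for either group. The labels do not say whether replicates were separate cultures, so that p-values measure only the spread between these libraries, which may be technical. The labels name neither the hairpin behind the shUBXN1 libraries nor whether the cells are a pool or 1 clone. RNA was measured in bulk, in which fewer cells expressing a gene and less RNA per cell cannot be told apart.

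Interferons are secreted proteins that cells make when they sense viral RNA or DNA. Type I and type III interferons bind receptors that carry the kinases JAK1 and TYK2, which phosphorylate STAT proteins, among them STAT2. With IRF9 these form a complex called ISGF3, which enters the nucleus and binds a short element, the interferon-stimulated response element, in front of the genes described here. The products block viral replication at many steps, such as destroying RNA, holding back translation and tagging proteins with the ubiquitin-like ISG15. Some, such as USP18, switch the receptor signal off again. Many of these genes have a basal level in the absence of added interferon, and in liver cells they are known above all from the response to hepatitis viruses.

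The element was searched for in the promoters, because it is what these genes are best known to share and the list did not use it. RefSeq promoter windows on GRCh38.p14, running from 250 bases before to 50 bases after the annotated start, were at hand for 34 of the 39 genes. On either strand, the letters GAAANNGAAA were present in 21 of those 34 genes (61.8%) and in 4.38% of 27305 genes with a window. The longer form GAAANNGAAACT, each match of which is also a match of the shorter one, was present in 14 of 34 (41.2%) and in 0.322% of all genes. The following stretches are shown since they carry the longer form in genes that rose, fell or did not pass the test after knockdown, with the element in capitals, 5′ to 3′ along the strand of the gene. Where the capitals read AGTTTC first, the element lies on the opposite strand. The first 5 belong to genes that were higher in shUBXN1, namely MX1 (chr21:41420549-41420600, plus strand), IFI27 (chr14:94110606-94110657, plus strand), ISG15 (chr1:1013370-1013421, plus strand), IFIT1 (chr10:89392485-89392536, plus strand) and PARP9 (chr3:122564312-122564363, minus strand). DTX3L (same bases, plus strand) did not pass the test. The last 3 belong to genes that were lower, namely DDX60 (chr4:168318774-168318825, minus strand), EIF2AK2 (chr2:37156955-37157006, minus strand) and IFI44 (chr1:78649749-78649800, plus strand).
MX1: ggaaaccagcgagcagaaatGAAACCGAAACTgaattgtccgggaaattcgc
IFI27: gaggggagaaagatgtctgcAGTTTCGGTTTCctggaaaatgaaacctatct
ISG15: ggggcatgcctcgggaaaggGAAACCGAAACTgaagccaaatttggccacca
IFIT1: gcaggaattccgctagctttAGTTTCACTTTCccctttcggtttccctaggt
PARP9: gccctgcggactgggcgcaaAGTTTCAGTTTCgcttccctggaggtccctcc
DTX3L: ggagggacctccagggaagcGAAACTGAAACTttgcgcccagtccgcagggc
DDX60: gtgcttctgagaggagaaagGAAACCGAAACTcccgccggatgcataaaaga
EIF2AK2: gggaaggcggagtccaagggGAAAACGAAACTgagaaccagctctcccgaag
IFI44: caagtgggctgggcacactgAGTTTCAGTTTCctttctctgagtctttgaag

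The shorter form was found in 10 of 17 genes with a window that were higher after knockdown and in 5 of 7 that were lower. For the longer form the numbers were 7 of 17 and 3 of 7. Of the genes that did not pass, 3 of 7 held the shorter form and 3 of 7 the longer one. Of those not tested, 3 of 3 held the shorter form and 1 of 3 the longer one. The element was therefore found in genes of both directions and in genes that did not pass. MX1, ISG15 and DDX60 hold the same 12 letters in the same orientation. A match is a description of the letters in the window, and whether any factor was bound there in these cells was not measured.

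Depth was 27380508 and 24305174 counts in shCon and 23433826 and 23373700 in shUBXN1. Values are given as CPM (counts relative to library size after TMM scaling between libraries, edgeR) or, to compare genes with each other, as TPM (which also divides by gene length). UBXN1 itself was at 67.0 and 77.3 CPM in shCon and at 16.8 and 18.5 CPM in shUBXN1, a log2 fold change of -2.03 ± 0.096 (SE). Of the liver carcinoma markers, 11 of 12 passed the filter on low counts, KRT8 ranged from 2993 to 4059 TPM, and GPC3 had 0 counts in every library. Of the 11, 2 were higher in shUBXN1 (KRT18 and SERPINA1), 6 were lower and 3 did not pass. At an adjusted p under 0.05, 28.0% of all genes tested were higher and 28.2% lower. KRT18 and SERPINA1 lost the call after correction for GC content, and SERPINA1 also in DESeq2. ALB was at 16.0 and 14.8 TPM in shCon and 3.99 and 4.21 TPM in shUBXN1. Of 12 immune cell markers, 8 had at most 5 counts in every library, among them PTPRC and CD3E. Summed over that list, the level was 105 and 107 TPM in shCon and 97.7 and 87.3 TPM in shUBXN1, nearly all of it CD68. The summed level of 10 fibroblast and endothelial markers was 40.3 and 39.8 TPM in shCon and 44.7 and 46.0 TPM in shUBXN1, with CDH5 at most 6 counts and PDGFRB at most 7. Of that list 6 were tested, 3 of them higher (PECAM1, KDR and COL1A1) and 2 lower (LUM and DCN). The sum hides shifts in opposite directions. KDR went from 14.6 and 15.8 CPM in shCon to 48.1 and 56.5 CPM in shUBXN1. LUM went from 31.6 and 32.2 CPM in shCon to 13.9 and 16.6 CPM in shUBXN1. The part of these shifts in the results on interferon-stimulated genes was not tested.

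After knockdown the listed interferon-stimulated genes rose more often than they fell, but they did not move as a block. Each gene was tested by quasi-likelihood in edgeR, with p-values adjusted (Benjamini-Hochberg) over all 16863 genes tested. Of the 39, 35 were tested and 4 (MX2, HERC5, RSAD2, IFI44L) fell below the filter. At an adjusted p under 0.05, 19 of the 35 were higher (54.3%, against 28.0% of all genes tested). The number lower was 9 (25.7%, against 28.2% of all genes tested), and 7 did not pass. At a fold change of 2 with an unadjusted p under 0.05, 7 were higher (20.0%, against 11.8% of all genes) and 2 were lower (5.71%, against 6.09%). The median log2 fold change was 0.50 over the 35 genes and 0.016 over all genes tested. Of the 35, 23 lay above 0 (65.7%, against 51.0% of all genes). The share of counts on the mitochondrial genome also differed between the groups, at 5.28% and 5.59% in shCon and 7.43% and 8.27% in shUBXN1, and its part in these results was not tested.

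**Figure D1:**
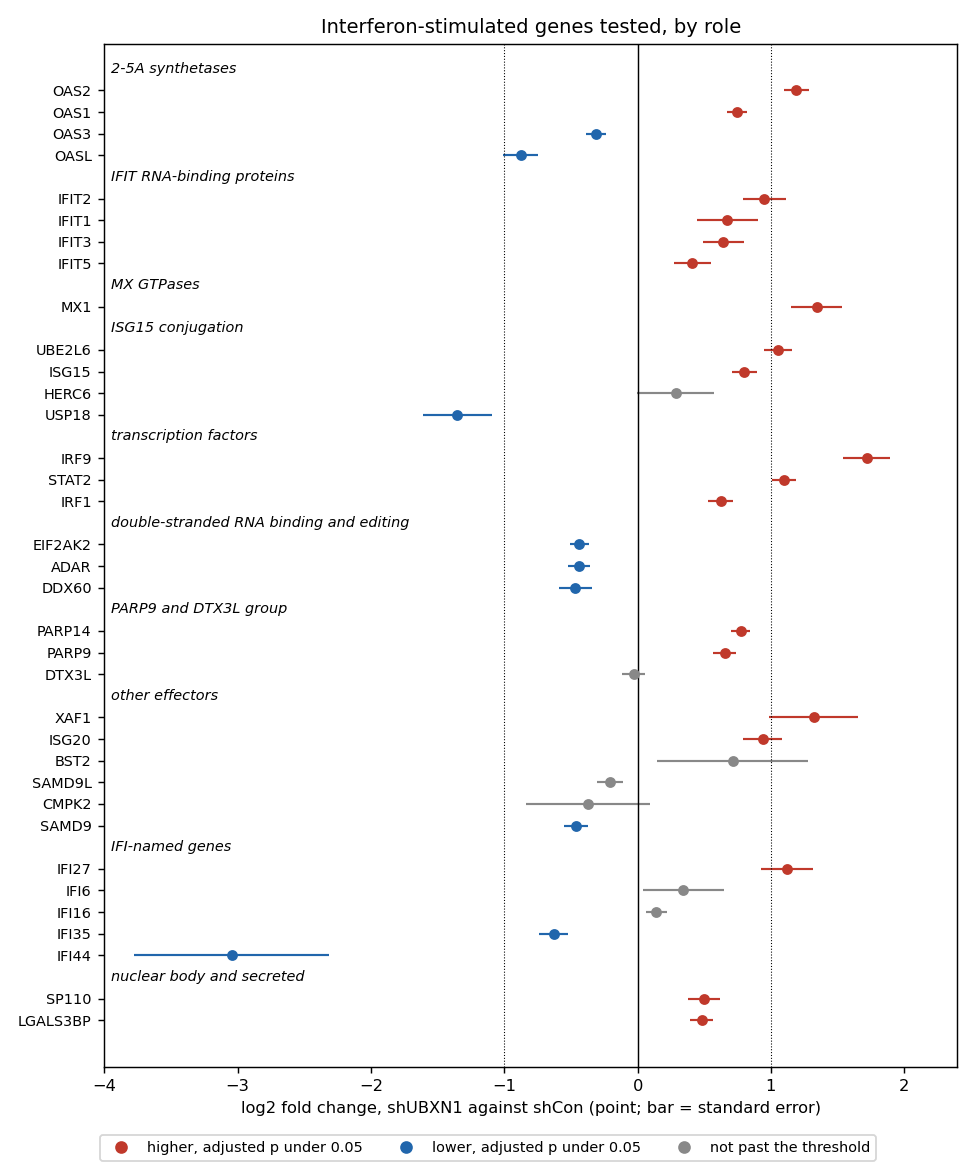
Log2 fold change of shUBXN1 against shCon (horizontal axis; bars, SE of the edgeR fit, 2 libraries per group) for the 35 genes tested, grouped by role; dotted lines mark a fold change of 2. The 4 IFIT genes and the 3 transcription factors lie to the right of 0, the 3 genes for binding and editing of double-stranded RNA to the left, and the 2-5A synthetases on both sides.

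All 3 transcription factors on the list were higher, and IRF9 had the largest rise of the 35 genes tested. IRF9, the DNA-binding subunit of ISGF3, was at 5.55 and 3.66 CPM in shCon and 15.2 and 15.3 CPM in shUBXN1. The rise was 3.30-fold (log2 fold change 1.72 ± 0.18, adjusted p = 1.51e-06, edgeR). The controls were less alike than the knockdown libraries, and the log2 fold change ran from 1.44 to 2.06 with each library left out in turn. STAT2, which brings the transactivation domain to ISGF3, was at 30.8 and 29.6 CPM in shCon and 69.7 and 59.8 CPM in shUBXN1. The rise was 2.14-fold (log2 fold change 1.10 ± 0.090, adjusted p = 1.58e-07, edgeR). IRF1, which can drive many of the same genes by itself, rose less, from 22.3 and 23.9 CPM to 33.7 and 37.5 CPM (log2 fold change 0.62 ± 0.095). IRF9 shares 23.9% of its exon bases with an overlapping gene on the same strand and IRF1 22.9% with antisense genes, so that reads in those stretches could belong to either.

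Other STATs were looked up as well, and chosen after their values were seen. STAT3, best known for transducing the signal of interleukin-6, rose from 103 and 97.8 CPM to 235 and 246 CPM (log2 fold change 1.26 ± 0.074, adjusted p = 6.79e-09, edgeR). STAT5A, a target of growth hormone and cytokine receptors, rose from 19.8 and 20.6 CPM to 49.9 and 46.2 CPM. STAT5B (log2 fold change 0.09 ± 0.075) and STAT6 (0.18 ± 0.075) did not pass the test.

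MX1, a dynamin-like GTPase that traps viral nucleocapsids, was at 3.34 and 3.19 CPM in shCon and 8.59 and 7.98 CPM in shUBXN1. That is a 2.54-fold rise (log2 fold change 1.34 ± 0.19, adjusted p = 3.38e-05, edgeR). Its neighbour on chromosome 21, MX2, which blocks nuclear entry of HIV, was close to absent. MX2 had 1 and 2 counts in shCon and 3 and 5 in shUBXN1, a ratio of 2.78 after scaling with an exact 95% interval of 0.666 to 16.2. Such intervals cover counting error only. The direction for MX2 was thus not detectable at this depth.

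The 2-5A synthetases make a short adenylate chain that activates RNase L, which then cuts RNA. All 4 passed the test, 2 in each direction. OAS2 was at 22.7 and 22.9 CPM in shCon and 48.0 and 56.1 CPM in shUBXN1, 2.28-fold higher (log2 fold change 1.19 ± 0.094, adjusted p = 1.15e-07, edgeR). OAS1 rose from 152 and 148 CPM to 246 and 258 CPM (log2 fold change 0.75 ± 0.073). OAS3, the form that makes most of the adenylate chain in many human cells, fell from 201 and 190.1 CPM to 151 and 164 CPM (log2 fold change -0.31 ± 0.076, adjusted p = 0.00304, edgeR). OASL, which lacks the enzyme activity and acts with the RNA sensor RIG-I, fell from 16.0 and 15.7 CPM to 9.16 and 8.06 CPM (log2 fold change -0.88 ± 0.13, adjusted p = 5.11e-05, edgeR). The groups were apart in each of the 4 genes, but these were already called in the same libraries, so that this is no added support. How often groups were apart among all genes tested was not counted.

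OAS1 (chr12:112905856-112933219), OAS3 (chr12:112938051-112976460) and OAS2 (chr12:112978395-113011723) stand in this order on the plus strand of chromosome 12 in GENCODE 44 on GRCh38, and OASL lies farther along on the minus strand (chr12:121017763-121039246). The gene that fell thus lies between 2 that rose. The difference between the 3 genes was not itself tested.

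**Figure D2:**
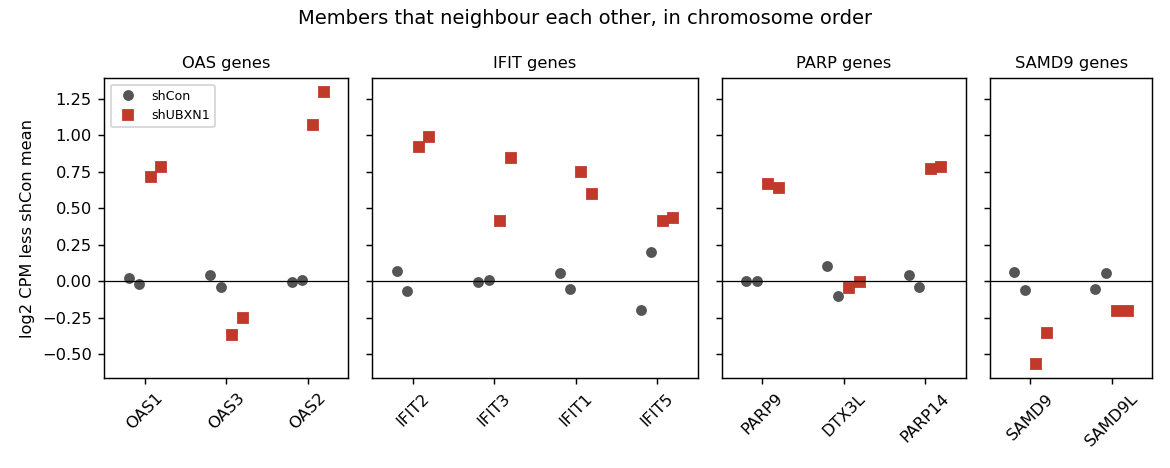
Log2 CPM of each library less the mean of the 2 shCon libraries (vertical axis) for genes of the list that neighbour each other, in chromosome order. OAS3 lies below 0 between OAS1 and OAS2, all 4 IFIT genes lie above 0 in the shUBXN1 libraries, DTX3L stays at the control level beside PARP9, and both SAMD9 genes lie below 0 in the shUBXN1 libraries, where SAMD9L did not pass the test.

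The IFIT proteins bind the 5′ end of foreign RNA and hold back its translation. All 4 rose, each by less than a fold change of 2. IFIT2 went from 5.51 and 5.02 CPM to 9.93 and 10.5 CPM (log2 fold change 0.95 ± 0.16), and 12.1% of its exon bases are shared with a gene on the same strand. IFIT1 went from 3.22 and 2.98 CPM to 5.20 and 4.69 CPM (0.67 ± 0.23, adjusted p = 0.0204, edgeR). IFIT1 lost the call in DESeq2 (adjusted p = 0.0748), without shCon replicate 2 (0.0975) and without shUBXN1 replicate 1 (0.067). IFIT3 went from 9.26 and 9.31 CPM to 12.3 and 16.7 CPM (0.64 ± 0.15), and without shUBXN1 replicate 2 its log2 fold change was 0.40. IFIT5 went from 10.9 and 14.4 CPM to 16.7 and 16.9 CPM (0.41 ± 0.14, adjusted p = 0.0196, edgeR). The 2 controls of IFIT5 were farther apart than those of the other IFIT genes, and without shCon replicate 1 the log2 fold change was 0.22 (adjusted p = 0.293, edgeR). IFIT5 also lost the call in DESeq2 (adjusted p = 0.067) and in limma on log2(TPM + 1) (adjusted p = 0.0551). The 4 genes follow each other on the plus strand of chromosome 10 from IFIT2 (from 89283694) to IFIT5 (to 89421605).

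The ISG15 system showed rising and falling members. ISG15, the ubiquitin-like tag, went from 17.4 and 18.2 CPM to 30.6 and 31.2 CPM (log2 fold change 0.80 ± 0.096). After correction for GC content its log2 fold change was 0.51. UBE2L6, the conjugating enzyme that carries ISG15, was at 14.0 and 14.8 CPM in shCon and 28.6 and 31.3 CPM in shUBXN1, 2.08-fold higher (log2 fold change 1.06 ± 0.10, adjusted p = 9.49e-07, edgeR). HERC6, related to the ligase for ISG15, was at 2.29 and 2.21 CPM in shCon and 2.54 and 2.94 CPM in shUBXN1 and did not pass (0.29 ± 0.29).

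HERC5, the main human ISG15 ligase, had 0 and 2 counts in shCon and 4 and 9 in shUBXN1, a ratio of 6.76 with an exact 95% interval of 1.53 to 61.7. At these counts it was not tested in the fit across genes. USP18, which removes ISG15 from proteins and holds the type I receptor in check, went the other way. It was at 4.35 and 4.68 CPM in shCon and 1.74 and 1.79 CPM in shUBXN1, 2.55-fold lower (log2 fold change -1.35 ± 0.26, adjusted p = 4.99e-04, edgeR). Both knockdown libraries were below both controls, which is no added support for a gene already called in these libraries. USP18 has a near-identical copy, USP41, so that reads could be split between them. The tag and its carrier thus rose while the enzyme that takes the tag off fell.

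**Figure D3:**
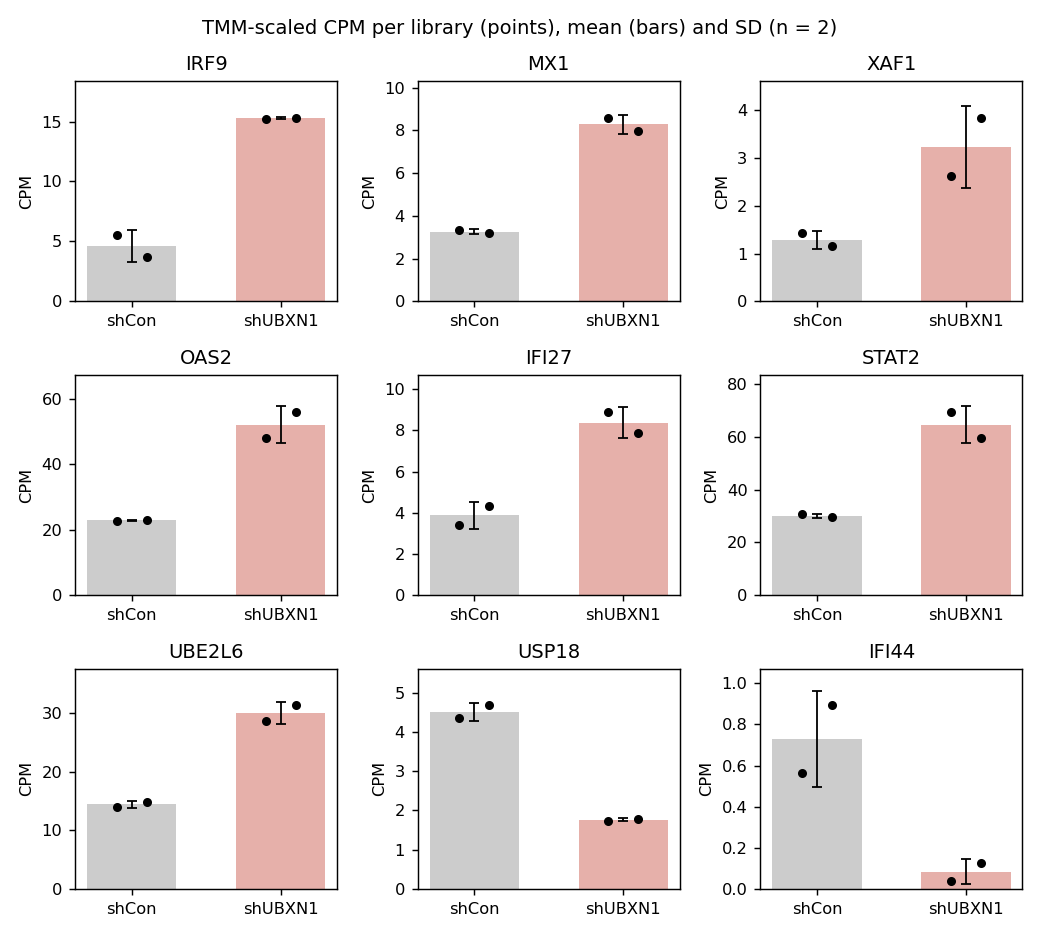
TMM-scaled CPM (vertical axes, from 0) of the 9 genes past a fold change of 2 in each library (points), with the mean (bars) and SD (error bars, n = 2). IRF9, MX1, XAF1, OAS2, IFI27, STAT2 and UBE2L6 are higher in shUBXN1, and USP18 and IFI44 are lower. The genes were chosen by their difference in these same libraries, so that points lying apart in each panel are no added support.

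Of the other effectors, XAF1, an antagonist of the apoptosis inhibitor XIAP, was at 1.42 and 1.15 CPM in shCon and 2.62 and 3.84 CPM in shUBXN1. XAF1 rose 2.50-fold (log2 fold change 1.32 ± 0.33, adjusted p = 0.00384, edgeR), and its value on the log2(TPM + 1) scale was 0.75. At 38.3%, it has the largest share of exon bases under an antisense gene (PRAL) of the 39. ISG20, an RNA exonuclease, rose from 6.41 and 7.48 CPM to 12.7 and 13.9 CPM (log2 fold change 0.94 ± 0.15). SAMD9, an antiviral factor that blocks translation, fell from 66.2 and 60.9 CPM to 42.7 and 49.5 CPM (log2 fold change -0.46 ± 0.088, adjusted p = 4.30e-04, edgeR). Its neighbour SAMD9L, a paralog, was at 25.0 and 27.0 CPM in shCon and 22.5 and 22.6 CPM in shUBXN1, which did not pass (-0.21 ± 0.096, adjusted p = 0.0842, edgeR).

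BST2, also called tetherin, which holds budding virus at the cell surface, was near the limit of detection with 9 and 8 counts in shCon and 17 and 10 in shUBXN1 (log2 fold change 0.71 ± 0.57, not passed). CMPK2, a mitochondrial nucleotide kinase, and RSAD2 (viperin), which makes a chain-terminating nucleotide, share a start region on chromosome 2 and overlap in 7.99% of the exon bases of CMPK2 on the opposite strand. CMPK2 had 27 and 19 counts in shCon and 20 and 14 in shUBXN1 (-0.37 ± 0.46, not passed). RSAD2 had 6 and 3 counts in shCon and 5 and 3 in shUBXN1, a ratio of 0.925 with an exact 95% interval of 0.311 to 2.70. For these 3 genes, each strongly induced when cells meet interferon, no difference was detectable at this depth.

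Among the genes named IFI, 1 rose and 2 fell. IFI27, a small mitochondrial and nuclear membrane protein, was at 3.41 and 4.34 CPM in shCon and 8.92 and 7.85 CPM in shUBXN1. The rise was 2.17-fold (log2 fold change 1.12 ± 0.19, adjusted p = 2.14e-04, edgeR). IFI35, a partner of NMI, fell from 22.2 and 21.9 CPM to 13.4 and 15.1 CPM (log2 fold change -0.63 ± 0.11, adjusted p = 2.25e-04, edgeR). IFI16, a nuclear DNA sensor, was at 95.3 and 91.7 CPM in shCon and 96.6 and 109 CPM in shUBXN1 and did not pass (0.14 ± 0.079). IFI16 did pass under total count scaling (0.22, adjusted p = 0.0154), in limma on log2(TPM + 1) (0.19, adjusted p = 0.034) and without shUBXN1 replicate 1 (0.22, adjusted p = 0.00638). IFI6, an inhibitor of apoptosis at mitochondria, was at 1.80 and 2.93 CPM in shCon and 2.78 and 3.20 CPM in shUBXN1 and did not pass (0.34 ± 0.31). The groups of IFI6 overlapped.

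IFI44, a cytoplasmic protein of the interferon response, had 15 and 21 counts in shCon and 1 and 3 in shUBXN1. After scaling, the ratio of shUBXN1 to shCon was 0.116 with an exact 95% interval of 0.0299 to 0.323. It passed the test (adjusted p = 0.00265, edgeR), but not without shCon replicate 2 (adjusted p = 0.0713). Of the 9 genes that fell, it had the lowest level in the controls, at a mean of 0.865 TPM. Its neighbour IFI44L had 1 and 1 counts in shCon and 3 and 0 in shUBXN1, too few for a comparison.

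The 3 genes grouped here for binding and editing of double-stranded RNA (EIF2AK2, ADAR, DDX60) were each lower. OAS1 and OAS2, whose products are also activated by such RNA, rose. EIF2AK2, the kinase PKR that stops translation on sensing such RNA, fell from 118 and 112 CPM to 84.5 and 85.3 CPM (log2 fold change -0.44 ± 0.072, adjusted p = 1.36e-04, edgeR). ADAR, which edits adenosine to inosine in double-stranded RNA, fell from 789.8 and 764 CPM to 551 and 595 CPM (log2 fold change -0.44 ± 0.081, adjusted p = 3.30e-04, edgeR). DDX60, a helicase, fell from 19.4 and 16.8 CPM to 14.0 and 12.2 CPM (log2 fold change -0.47 ± 0.12, adjusted p = 0.00558, edgeR). The log2 fold changes of the 3 genes lay between -0.47 and -0.44. DDX60 lost the call without shCon replicate 1 (adjusted p = 0.0767) and in limma on log2(TPM + 1) (adjusted p = 0.123). With OAS3, OASL, USP18, IFI35, IFI44 and SAMD9 these make up the 9 genes that ran against the direction of the list's median. Outside the list, 10 genes of RNA and DNA sensing were tested, of which 3 were higher and 2 lower (28.0% and 28.2% of all genes tested). DHX58 (log2 fold change 1.22 ± 0.21, adjusted p = 2.22e-04, edgeR) and IFIH1 (0.37 ± 0.15, adjusted p = 0.0485, edgeR) were higher. RIGI, the gene of RIG-I, was lower (-0.57 ± 0.14, adjusted p = 0.00265, edgeR). IFIH1 lost the call in DESeq2 and other alternatives, and RIGI in limma on log2(TPM + 1).

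PARP9 and DTX3L encode partners, a macrodomain protein and a ubiquitin ligase, and are transcribed away from each other on chromosome 3 from a shared stretch that holds the element printed above for both. PARP9 rose from 25.3 and 25.4 CPM to 40.3 and 39.4 CPM (log2 fold change 0.65 ± 0.086, adjusted p = 1.62e-05, edgeR). DTX3L was at 60.1 and 52.3 CPM in shCon and 54.3 and 55.9 CPM in shUBXN1 (log2 fold change -0.03 ± 0.084, adjusted p = 0.787, edgeR). The knockdown libraries of DTX3L lay between its 2 controls, and its sign was turned by total count scaling, by limma on log2(TPM + 1) and without shCon replicate 1. The difference between the pair was not tested. PARP14, a mono-ADP-ribosyltransferase in the same region, rose from 83.9 and 79.0 CPM to 139 and 140.0 CPM (log2 fold change 0.77 ± 0.073).

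Per length, the highest of the 39 in the control cells was LGALS3BP, a secreted glycoprotein, at a mean of 502 TPM, followed by ADAR at 236 TPM, OAS1 at 175 TPM, IFI16 at 65.1 TPM and OAS3 at 60.2 TPM. LGALS3BP rose from 549.6 and 552 CPM to 724 and 813 CPM (log2 fold change 0.48 ± 0.083). The call was lost after correction for GC content (0.25, adjusted p = 0.0856). In shUBXN1 the order at the top was LGALS3BP (729 TPM), OAS1 (307 TPM), ADAR (181 TPM) and ISG15 (102 TPM), so that OAS1 and ADAR changed places. SP110, a nuclear body protein, rose from a mean of 3.78 TPM to 5.57 TPM (log2 fold change 0.50 ± 0.12), and 19.4% of its exon bases lie under antisense genes. The lowest among those that passed the test upward were XAF1 (0.757 TPM in shCon), IFIT1 (1.45 TPM) and MX1 (1.79 TPM).

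**Figure D4:**
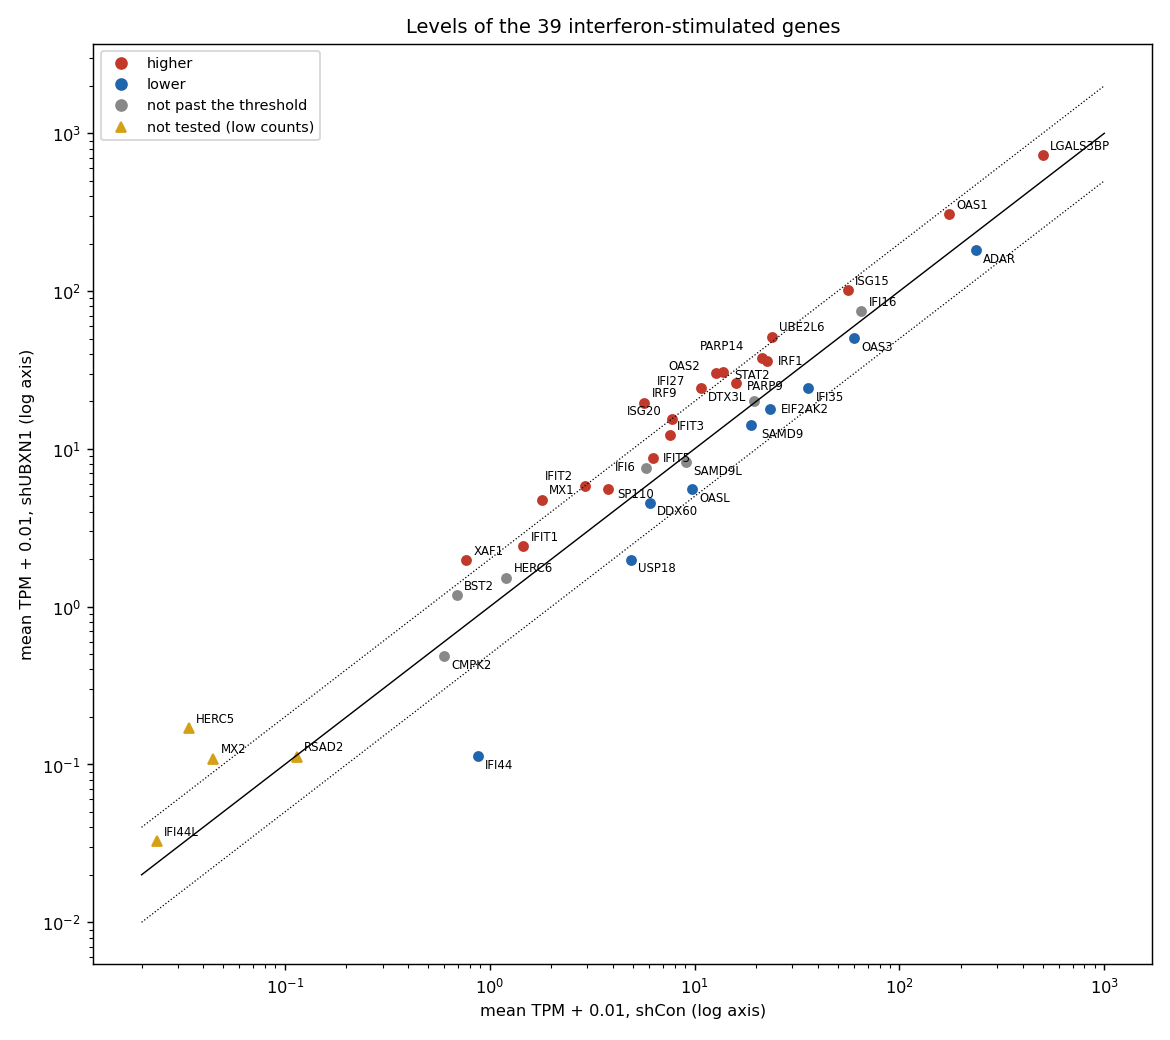
Mean TPM (2 libraries per group) of the 39 genes in shCon (horizontal) and shUBXN1 (vertical), both log axes after adding 0.01 TPM; the solid line marks equal levels and the dotted lines a fold change of 2. Genes that rose and genes that fell are found at both high and low levels, and the 4 genes not tested lie below 0.2 TPM.

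Further up the pathway, interferon transcripts were all but absent. Of 22 ligand genes, 19 had 0 counts in every library and none passed the filter. IFNB1 had 1 count in 1 control library, IFNA1 had 3 counts in 1 control library, and IFNE, an epithelial type I interferon, had 2 and 9 counts in shCon and 10 and 6 in shUBXN1. IFNL genes were among those at 0. At these depths a count of 0 allows up to 3 counts per library.

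The 6 receptor chains were all measured. IFNAR1 (log2 fold change -0.33 ± 0.083) and IFNGR1 (-0.58 ± 0.087, adjusted p = 5.49e-05, edgeR) were lower, and IFNGR2 was higher (0.47 ± 0.076, adjusted p = 1.05e-04, edgeR). The receptor for interferon gamma thus had 1 chain at 87.1 and 96.2 TPM in shCon and 62.3 and 65.2 TPM in shUBXN1 and the other at 88.9 and 86.5 TPM and 125 and 128 TPM. IFNAR1 lost the call without shCon replicate 1 (adjusted p = 0.0764) and in limma on log2(TPM + 1) (adjusted p = 0.094). IFNAR2 (-0.0047 ± 0.13), IFNLR1 (0.25 ± 0.16) and IL10RB (0.15 ± 0.11) did not pass. The kinases JAK1 (0.29 ± 0.075), TYK2 (0.36 ± 0.075) and JAK2 (0.57 ± 0.19) were higher. After correction for GC content JAK1 (adjusted p = 0.0828) and TYK2 (0.299) did not pass. JAK1 and JAK2 lost the call without shCon replicate 2 (adjusted p = 0.154 and 0.227), and JAK2 also in DESeq2 (0.069) and limma on log2(TPM + 1) (0.0696).

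**Figure D5:**
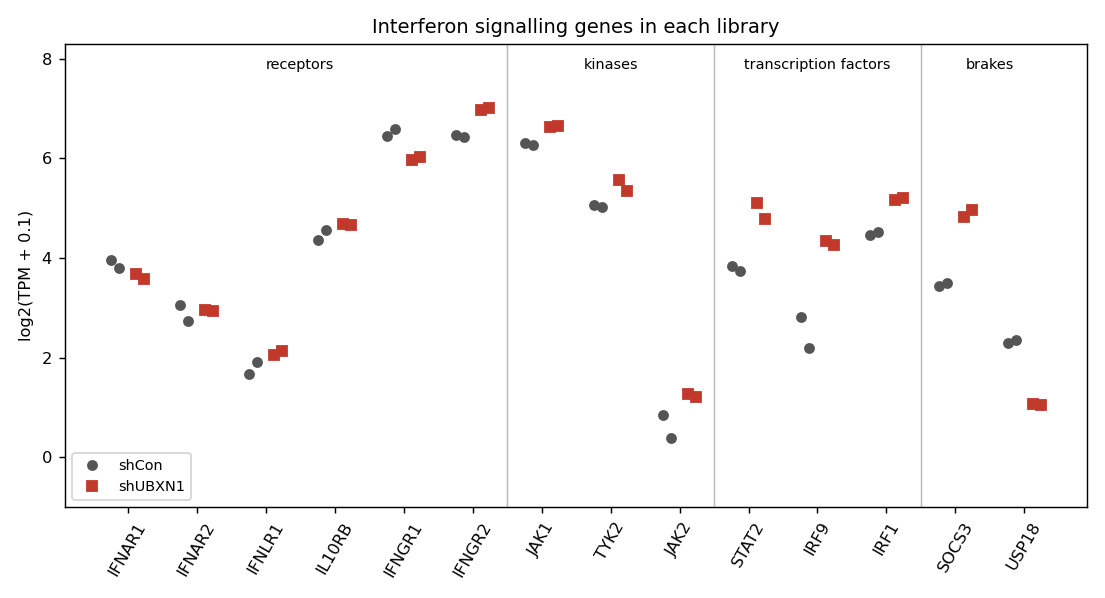
Level of interferon signalling genes as log2(TPM + 0.1) in each library (circles, shCon; squares, shUBXN1), from receptors through kinases and transcription factors to feedback inhibitors. STAT2, IRF9, IRF1 and SOCS3 are higher in shUBXN1, and USP18 is lower.

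Over 99 further genes of the pathway, a list that holds none of the 39, 68 were tested, 24 were higher and 17 lower at an adjusted p under 0.05, with 8 and 3 past a fold change of 2. Among all genes tested, 28.0% were higher and 28.2% lower. The 8 and 3 were counted at a fold change of 2 with an unadjusted p under 0.05. By that rule 11.8% of all genes tested were higher and 6.09% lower. The median log2 fold change was 0.14. Of 39 further interferon-induced genes among them, 34 were tested, 11 were higher and 8 lower, beside the same shares of all genes. Their median log2 fold change was 0.16, against 0.50 over the 35 tested genes of the list. Of 11 genes of RNA and DNA sensing, 10 were tested, 3 were higher and 2 lower. The 5 with the smallest p upward at a fold change of 2 were HELZ2, SOCS3, IRF5, APOBEC3G and TYMP. HELZ2, a helicase, rose from 25.6 and 21.9 CPM to 77.1 and 67.8 CPM (log2 fold change 1.61 ± 0.097). SOCS3, a feedback inhibitor of cytokine receptors, rose from 14.3 and 15.4 CPM to 35.5 and 42.3 CPM (1.39 ± 0.11). APOBEC3G, a cytidine deaminase that mutates retroviral DNA, rose from 12 and 19 counts to 121 and 127 counts (3.04 ± 0.33). IRF5 (1.29 ± 0.14) and TYMP, thymidine phosphorylase (1.27 ± 0.14), rose too.

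Of the genes that fell past a fold change of 2, GBP1 and GBP2, guanylate-binding proteins that are classic targets of interferon gamma, fell from 6.86 and 7.36 CPM to 1.65 and 2.39 CPM (-1.81 ± 0.24) and from 23.7 and 24.5 CPM to 9.52 and 9.17 CPM (-1.37 ± 0.11). CXCL9 and CXCL10, chemokines induced by interferon, had 0 counts in all libraries.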

How the data were processed

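The authors deposited 1 expected count for each gene and library, before any normalization, together with gene lengths. The submitters' processing notes name HISAT2 2.0.4, StringTie 1.3.0 and GRCh37, whereas the study's methods name GRCh38, and 99.72% of the gene IDs were found in GENCODE 44 (GRCh38). Which tool counted, the annotation release and the strand setting are not given in the sources used here, so overlapping genes, antisense genes and near-identical copies are uncertain. The methods and the labels also name different library kits and controls.

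Rounded counts went through filterByExpr, TMM scaling, glmQLFit and glmQLFTest of edgeR 4.0.16 (R 4.3.3), with Benjamini-Hochberg adjustment over 16863 genes and no block. The biological coefficient of variation was 0.0711, with 2 residual degrees of freedom. Replicates differed by more than sampling noise (chi-square over degrees of freedom 3.65 for shCon, 7.77 for shUBXN1), and none was counted as a repeat. TPM was computed from the deposited lengths. Ratios of summed counts were scaled by effective library size, with Clopper-Pearson intervals.

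The members, the gene lists and the alternatives were chosen with earlier results of these data known. Values per library are given for members past a fold change of 2 and an adjusted p under 0.05, for members that passed against the median and for members at or under 3 counts in a group. Ligands are given by counts, and the receptors, kinases and STATs that are named by level or by log2 fold change. Other pathway genes are given only past a fold change of 2 and an adjusted p under 0.05, at most 5 in each direction. The remaining members, STAT3, STAT5A, STAT5B, STAT6, CXCL9, CXCL10, DHX58, IFIH1, STING1, RIGI and MAVS were described after their values were seen. Some genes of the lists are not reported here. Alternatives were DESeq2 1.42.0, limma-voom and limma 3.58.1 on log2(TPM + 1), total count scaling, no filter, at least 10 counts in every library, a replicate block and leaving out each library. A GC correction was added after the data were seen.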

Additional observations from a re-analysis of the deposited data

How the results depend on the processing

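Of the 35 genes tested, 28 kept their direction and their side of the threshold under every alternative that gave them a value (12, or 11 for BST2, which the filter of at least 10 counts drops), and the 7 that did not are IFIT1, IFIT5, DDX60, DTX3L, IFI16, IFI44 and LGALS3BP, whose values stand in the report. The count of genes higher past a fold change of 2 was 7 and became 4 after GC correction, where STAT2, UBE2L6 and IFI27 fell just short. The count lower was 2 and became 0 in limma on log2(TPM + 1), a scale that shrinks low genes, and 1 with at least 10 counts in every library, a filter that drops IFI44 and BST2. The median log2 fold change was 0.50, and 0.59 with total count scaling (which moved the median of all genes from 0.016 to 0.10), 0.46 in limma on log2(TPM + 1), 0.56 with no filter, 0.53 with at least 10 counts and 0.47 after GC correction. With each library left out it ran from 0.40 to 0.61. DTX3L turned to 0.055 with total count scaling and 0.032 in limma on log2(TPM + 1), and ran from -0.14 to 0.076 with each library left out. IFNAR2 turned to 0.0795 with total count scaling, 0.054 in limma on log2(TPM + 1) and 0.023 with at least 10 counts, and ran from -0.15 to 0.14 with each library left out. The cause of these shifts was otherwise not tested.

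The labels give same-numbered libraries nothing in common but the number, and the correlation of their deviations was 0.039. That value, from 2 libraries per group, cannot show whether they shared a batch. With the replicate block the counts were 19 higher and 9 lower and the median 0.50, and no call on the 35 genes changed. With 2 libraries per group, genes under about 10 counts (MX2, HERC5, RSAD2, IFI44L) are limited by depth.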
